A study of Homo sapiens with 48 samples.

Results

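TIPARP, a mono-ADP-ribosyltransferase, was described together with the genes of the aryl hydrocarbon receptor (AHR), the pathway in which TIPARP is both a target and a repressor. TIPARP was chosen by its edgeR adjusted p of at most 0.05 between light alone and DMSO, arms described below, at 6 and 12 h. The other genes, AHR, CYP1B1, AHRR and CYP1A1, were chosen by name, with earlier results of these data known. Together these are the members, 5 genes in all. The count tables hold 14685 genes, of which 4 were members: TIPARP (ENSG00000163659), AHR (ENSG00000106546), CYP1B1 (ENSG00000138061) and AHRR (ENSG00000063438). CYP1A1 was not analysed here.

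RNA was sequenced from HEK293T cells, a human embryonic kidney line labelled as genotype WT, after T-REX, a method that releases the lipid electrophile HNE from a photocaged probe beside 1 chosen protein. In every arm the cells had been transfected transiently with a plasmid for NCBP1, a subunit of the complex that binds the cap of nuclear RNA, fused to Halo, so that no arm lacked the fusion protein. The arms were T-REX (Ht-PreHNE and light; labelled as reaction), light alone (labelled UV), probe alone (labelled Pre, Ht-PreHNE without light) and DMSO, the vehicle without light. Cells were collected 3, 6 and 12 h later, with 4 replicates per arm and time, which gave 48 libraries. The study's methods also list Ht-PreHNE for light alone, whereas the name of that arm does not, so whether its cells held the probe cannot be told apart from these sources. The study describes the replicates as biologically independent.

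AHR is a ligand-activated transcription factor held in the cytosol by HSP90 and its co-chaperones, p23 among them. Once bound by a ligand, which can be a pollutant, a dietary compound or a tryptophan photoproduct, it enters the nucleus, pairs with ARNT and binds dioxin response elements beside genes such as CYP1A1, CYP1B1, AHRR and TIPARP. AHRR competes for ARNT and TIPARP ADP-ribosylates AHR, and both lower its activity.

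The dioxin response element has the core letters GCGTG, read CACGC from the opposite strand. Upstream windows of 250 bases are shown for 2 targets and for the receptor gene, since AHR is known to act on its targets through this element. Sequences are from RefSeq (GRCh38.p14), 5′ to 3′ on the strand of the gene and ending at the base before the annotated start, with core letters of either strand in capitals. The windows are TIPARP at chr3:156674340-156674589 (plus strand), AHRR at chr5:321464-321713 (plus strand) and AHR at chr7:17298402-17298651 (plus strand).
TIPARP: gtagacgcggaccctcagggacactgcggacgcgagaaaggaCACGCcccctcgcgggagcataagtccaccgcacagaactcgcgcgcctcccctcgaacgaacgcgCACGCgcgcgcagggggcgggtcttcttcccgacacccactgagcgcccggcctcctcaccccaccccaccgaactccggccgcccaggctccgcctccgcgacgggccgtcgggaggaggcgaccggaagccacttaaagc
AHRR: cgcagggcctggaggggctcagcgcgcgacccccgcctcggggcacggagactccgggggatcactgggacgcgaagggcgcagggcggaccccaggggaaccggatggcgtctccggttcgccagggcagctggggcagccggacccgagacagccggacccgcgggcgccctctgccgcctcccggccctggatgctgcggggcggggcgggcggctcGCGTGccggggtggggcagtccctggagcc
AHR: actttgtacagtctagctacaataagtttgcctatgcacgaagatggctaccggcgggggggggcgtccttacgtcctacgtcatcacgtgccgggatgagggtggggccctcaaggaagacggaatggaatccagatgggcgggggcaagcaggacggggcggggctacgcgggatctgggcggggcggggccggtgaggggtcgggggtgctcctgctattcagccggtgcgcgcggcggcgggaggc

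The window of TIPARP held 2 cores, which began 208 and 142 bases before the start, both read from the opposite strand. That of AHRR held 1, which began 30 bases before the start, and that of AHR held 0. TIPARP and AHRR have further annotated starts, and the windows before those of TIPARP held 0 cores and that before the second of AHRR held 2. Of 35116 promoters searched in the same way, 32.2% held at least 1 core and 10.2% at least 2, so that these letters alone set no gene apart.

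Total counts per library ran from 23952455 to 37099535 (median 29405598.5). Levels are given as CPM, the counts of a gene per 1000000 counts of the library after TMM scaling, which corrects for differences in library composition. NCBP1, whose plasmid and genomic transcripts are not separated in the counts, took between 31200 and 91280 CPM in each library. Of 8 markers of HEK293T cells 6 were analysed. VIM (432.5 to 683.2 CPM) and LIN28B (144.4 to 232.7 CPM) were abundant, followed by CDH2 (61.04 to 104.1 CPM) and NEFM (21.96 to 47.44 CPM). KRT18 (7.007 to 13.74 CPM) and KRT8 (4.383 to 10.67 CPM) were low. Of 8 markers of other cell types COL1A1 (2.091 to 6.176 CPM) was the 1 analysed, and its range overlapped with that of KRT8. In bulk RNA, a change in the share of cells and a change in RNA per cell cannot be told apart.

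TIPARP was the most abundant member per length of its merged exons, with a median of 14.9 CPM per kb over the 48 libraries. AHR stood at a median of 2.38 CPM per kb, CYP1B1, a cytochrome P450 that oxidises polycyclic hydrocarbons and oestrogens, at 1.64 and AHRR at 0.455. In reads, TIPARP had 1510 to 3260 counts per library, AHR 433 to 899, CYP1B1 180 to 503 and AHRR 61 to 156, so that AHRR rests on the fewest.

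TIPARP showed a higher level under light alone than in every other arm at 6 and 12 h, whereas at 3 h light alone and DMSO lay together and T-REX lay below both. Under DMSO its level was 97.1, 93.5, 89.7 and 91.8 CPM at 3 h in replicates 1 to 4, against 103.0, 96.0, 96.6 and 87.9 CPM under light alone. The probe alone libraries had 80.1, 89.9, 77.3 and 68.1 CPM. In T-REX the values were 75.7, 72.6, 70.4 and 69.1 CPM. The 4 T-REX values lay below all those of light alone and DMSO and inside the range of probe alone.

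The 3 h libraries were not those of the contrast that chose TIPARP. The choice was made with earlier results of these data known, however, so the tests of TIPARP at 3 h are not independent of it. At 3 h the TIPARP level fell in T-REX against light alone by 0.41 on the log2 scale (SE 0.067, 95% interval -0.55 to -0.28, adjusted p = 0.00604, edgeR's quasi-likelihood F-test, Benjamini-Hochberg adjusted across the whole table). In this comparison 0.197% of all genes were called, that is, had an adjusted p of at most 0.05. Against DMSO it fell by 0.37 (SE 0.067, 95% interval -0.51 to -0.23, edgeR adjusted p = 0.0033), where 5.99% of genes were called. The mean was 72.0 ± 2.89 CPM in T-REX (SD, n = 4), 0.751 times that of light alone, 95.9 ± 6.17 CPM, and 0.774 times that of DMSO, 93.0 ± 3.13 CPM. The fall against light alone missed the threshold in a fit of only those 8 libraries (edgeR adjusted p = 0.0592), and that against DMSO passed in all 23 alternatives tried.

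Probe alone, 78.9 ± 8.97 CPM at 3 h, lay between T-REX and the other controls, and none of its tests for TIPARP was called in the fit of all 16 libraries. The log2 difference was -0.13 for T-REX against probe alone (SE 0.067, 95% interval -0.27 to 0.01, edgeR adjusted p = 0.305), where 1.05% of genes were called. For light alone against probe alone it was 0.28 (SE 0.067, edgeR adjusted p = 0.0789), where 0.232% were called, and this passed under 5 of 23 alternatives. Without replicate 2 of probe alone, its highest value, the difference was 0.35 (edgeR adjusted p = 0.0347), and without replicate 3 of T-REX it was 0.28 (edgeR adjusted p = 0.0300). For probe alone against DMSO it was -0.24 (SE 0.067, edgeR adjusted p = 0.926), where 0.00681% were called, and it passed under 1 of 23 alternatives, with the 2 deposited factors of unwanted variation as covariates (-0.24, edgeR adjusted p = 0.0225). Light alone against DMSO gave 0.04 for TIPARP (SE 0.067, 95% interval -0.09 to 0.18, edgeR adjusted p = 0.877), where again 0.00681% were called.

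**Figure D1:**
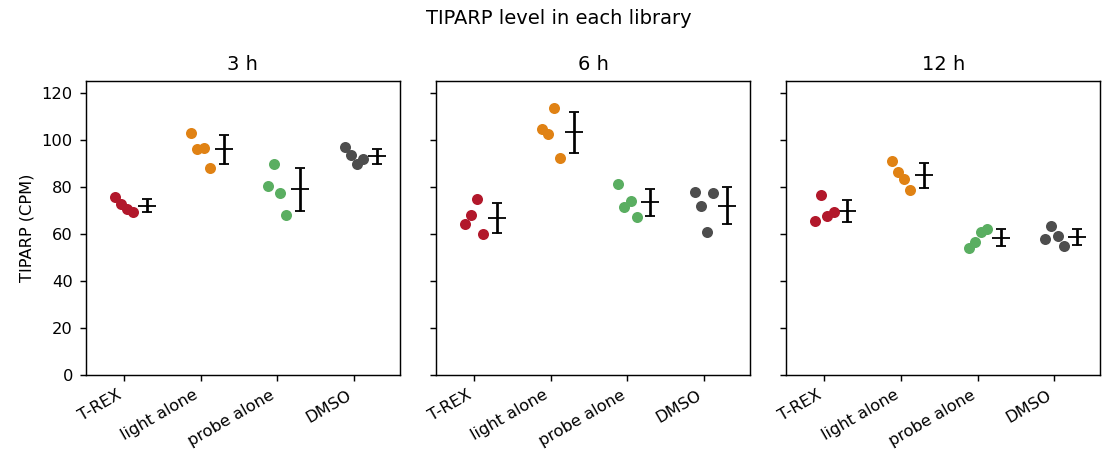
TIPARP level (CPM, linear axis from 0) in each library by arm, at 3, 6 and 12 h. Points are the 4 replicates in order, and the bar beside them is the mean with its SD. At 6 h the light alone points (92.5 to 113.4 CPM) stand above all others, and at 12 h T-REX (65.5 to 76.3 CPM) stands between light alone and the other 2 arms.

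At 6 h, the TIPARP level under light alone was 104.6, 102.3, 113.4 and 92.5 CPM in replicates 1 to 4. The DMSO libraries had 77.9, 71.8, 60.8 and 77.5 CPM, and those of probe alone 81.1, 71.5, 73.8 and 67.2 CPM. In T-REX the values were 64.4, 67.8, 74.7 and 59.8 CPM. Light alone overlapped with no other arm, and the other 3 overlapped with one another.

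TIPARP was chosen because it was called between light alone and DMSO at 6 and 12 h, and the differences that rest on those libraries are therefore given as a description with no test. At 6 h it was the 1 gene called there (0.00681% of genes), and at 12 h 1 of 2 (0.0136%). Its log2 difference was 0.52 (SE 0.082) at 6 h and 0.53 (SE 0.064) at 12 h, or means 1.43 and 1.45 times those of DMSO. The other gene called at 12 h was RARB, a retinoic acid receptor, at -0.73 (SE 0.085). The genes that fell just outside the threshold were ARID5A at 6 h, with -1.02 (SE 0.19), and CAPN5 at 12 h, with 0.95 (SE 0.18). RARB, ARID5A and CAPN5 were picked after their values were seen.

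Other differences of TIPARP at 6 h, likewise a description, were -0.63 (SE 0.082) for T-REX against light alone and 0.49 (SE 0.082) for light alone against probe alone on the log2 scale. They were -0.11 (SE 0.082) for T-REX against DMSO and 0.03 (SE 0.082) for probe alone against DMSO. The share of all genes called was 0.218%, 0.0613%, 0.415% and 0.0272% in these 4 comparisons. T-REX against probe alone shares no library with light alone against DMSO, but the spread in its test was estimated from all 16 libraries. TIPARP was not called in T-REX against probe alone, at -0.14 (SE 0.082, 95% interval -0.31 to 0.03, edgeR adjusted p = 0.83), where 0.109% of genes were called.

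NCBP1 also differed between the arms. At 3 h its mean was 75120 ± 14860 CPM in T-REX, 60820 ± 6262 CPM under light alone and 53240 ± 6440 CPM under DMSO (SD, n = 4), and it was called higher in T-REX than in DMSO (log2 difference 0.50, edgeR adjusted p = 0.029), where TIPARP fell. At 6 h light alone, the arm with the highest TIPARP level, had 43350, 31200, 38500 and 52190 CPM of NCBP1. T-REX had 65120 to 79220 CPM, probe alone 64230 to 89350 CPM and DMSO 47080 to 60710 CPM, so light alone lay below T-REX and probe alone and overlapped with DMSO. NCBP1 was called at 6 h in T-REX against light alone (log2 difference 0.80, edgeR adjusted p = 0.0214). It was also called in light alone against probe alone (-0.99, edgeR adjusted p = 0.0144), but not in light alone against DMSO (-0.37, edgeR adjusted p = 0.244). Probe alone lay above DMSO in NCBP1 at 6 h without overlap, while TIPARP differed by 0.03 between them.

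At 12 h the mean NCBP1 level was 41350 ± 6915 CPM under light alone and 35440 ± 4500 CPM under DMSO (SD, n = 4), while TIPARP stood 1.45 times higher in the former. NCBP1 was called higher than in DMSO at 12 h in T-REX (58800 ± 5358 CPM, log2 difference 0.73, edgeR adjusted p = 0.00252) and in probe alone (60610 ± 10230 CPM, 0.77, edgeR adjusted p = 0.00541), of which T-REX lay above DMSO in TIPARP and probe alone overlapped with it. The part of NCBP1 in the TIPARP differences was not tested.

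At 12 h, the TIPARP level was 91.0, 86.3, 83.5 and 78.4 CPM under light alone in replicates 1 to 4. In T-REX it was 65.5, 76.3, 67.6 and 69.2 CPM, while DMSO had 57.6, 63.1, 58.9 and 54.7 CPM. Probe alone had 54.0, 56.7, 60.6 and 62.2 CPM. All light alone values lay above all T-REX values, which in turn lay above every value of DMSO and probe alone, and those 2 arms overlapped.

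T-REX against probe alone gave a TIPARP difference of 0.25 on the log2 scale at 12 h (SE 0.064, 95% interval 0.12 to 0.39), with means of 69.6 ± 4.72 and 58.4 ± 3.72 CPM (SD, n = 4) that stood 1.19-fold apart. It was not called in the fit of all 16 libraries (edgeR adjusted p = 0.0657), where 0.701% of genes were. DESeq2 called it among 257 genes (0.25, adjusted p = 0.0168). A fit of only these 8 libraries called it among 389 (edgeR adjusted p = 0.013). It was also called by edgeR when 1 library was left out: DMSO replicate 1 (adjusted p = 0.0434), 3 (adjusted p = 0.0131) or 4 (adjusted p = 0.0494), or probe alone replicate 4 (adjusted p = 0.0342). Each library left out in turn gave 0.21 to 0.29.

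The remaining TIPARP differences at 12 h, a description, were -0.29 (SE 0.064) for T-REX against light alone and 0.25 (SE 0.064) for T-REX against DMSO. They were 0.54 (SE 0.064) for light alone against probe alone and -0.01 (SE 0.065) for probe alone against DMSO. Of all genes, 1.29%, 10.9%, 0.415% and 5.11% were called in these comparisons. The T-REX mean thus lay below light alone at every time, at 0.751, 0.646 and 0.821 times its level at 3, 6 and 12 h, and its position against DMSO went from 0.774 through 0.926 to 1.19 times. The T-REX mean itself was 72.0, 66.7 and 69.6 CPM at these times. That of DMSO went from 93.0 through 72.0 to 58.6 CPM, and that of light alone was 95.9, 103.2 and 84.8 CPM. The level of an arm was not tested between times.

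The difference between T-REX and probe alone was also compared between times in a fit of all 48 libraries. For TIPARP it was 0.40 higher on the log2 scale at 12 h than at 3 h (SE 0.106), which was not called (edgeR adjusted p = 0.104), and 0.0681% of genes were. From 6 to 12 h it was 0.40 higher (SE 0.106, edgeR adjusted p = 0.997) and from 3 to 6 h 0.01 (SE 0.106, edgeR adjusted p = 0.987). In both of these edgeR called 0 genes (0%), and 672 and 1204 genes, respectively, had an unadjusted p of at most 0.05. None of the tests for AHR, CYP1B1 and AHRR between times was called.

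CYP1B1 had its highest mean under light alone at each time. At 6 h its level was 13.1, 16.9, 17.5 and 10.97 CPM under light alone in replicates 1 to 4, and 10.3, 9.37, 9.65 and 9.13 CPM under DMSO. Probe alone had 10.9, 10.4, 13.4 and 11.2 CPM and T-REX had 10.2, 11.1, 9.35 and 8.83 CPM. Light alone did not overlap with DMSO but did with the other 2 arms, and replicates 2 and 3 were its highest. Probe alone also lay above DMSO without overlap. The share of all genes without overlap was not counted. In light alone against DMSO at 6 h, 2109 of 14685 genes had an unadjusted edgeR p of at most 0.05.

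At 12 h the CYP1B1 level was 12.3, 11.6, 12.7 and 11.1 CPM under light alone against 7.59, 10.2, 8.82 and 8.86 CPM under DMSO, again without overlap. The share of all genes without overlap was not counted there either. In light alone against DMSO at 12 h, 1525 of 14685 genes had an unadjusted edgeR p of at most 0.05. At 3 h, when CYP1B1 was 9.82, 7.95, 9.65 and 10.2 CPM under light alone and 9.42, 8.49, 7.67 and 7.87 CPM under DMSO, the arms overlapped. The light alone against DMSO difference of CYP1B1 was 0.17 (SE 0.12), 0.60 (SE 0.13) and 0.43 (SE 0.12) on the log2 scale at 3, 6 and 12 h. At 3 h it was tested and not called (edgeR adjusted p = 0.751), and at 6 and 12 h it is a description from the contrast that chose TIPARP, in which CYP1B1 was not among the genes called.

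In T-REX against light alone, CYP1B1 differed by -0.34 (SE 0.12, edgeR adjusted p = 0.197) at 3 h, by -0.57 (SE 0.13, 95% interval -0.84 to -0.30, edgeR adjusted p = 0.0698) at 6 h and by -0.26 (SE 0.11, edgeR adjusted p = 0.328) at 12 h. The value at 6 h was called by DESeq2 (-0.57, adjusted p = 0.00764) and, without light alone replicate 4, by edgeR (-0.68, adjusted p = 0.00569). With the 2 deposited factors as covariates, edgeR called CYP1B1 at 3 h (-0.34, adjusted p = 0.0467) and at 6 h (-0.55, adjusted p = 0.000753). The CYP1B1 difference in T-REX against probe alone ran from -0.22 to -0.04 over the times, and its largest in size, -0.22 at 6 h, had an edgeR adjusted p of 0.83.

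**Figure D2:**
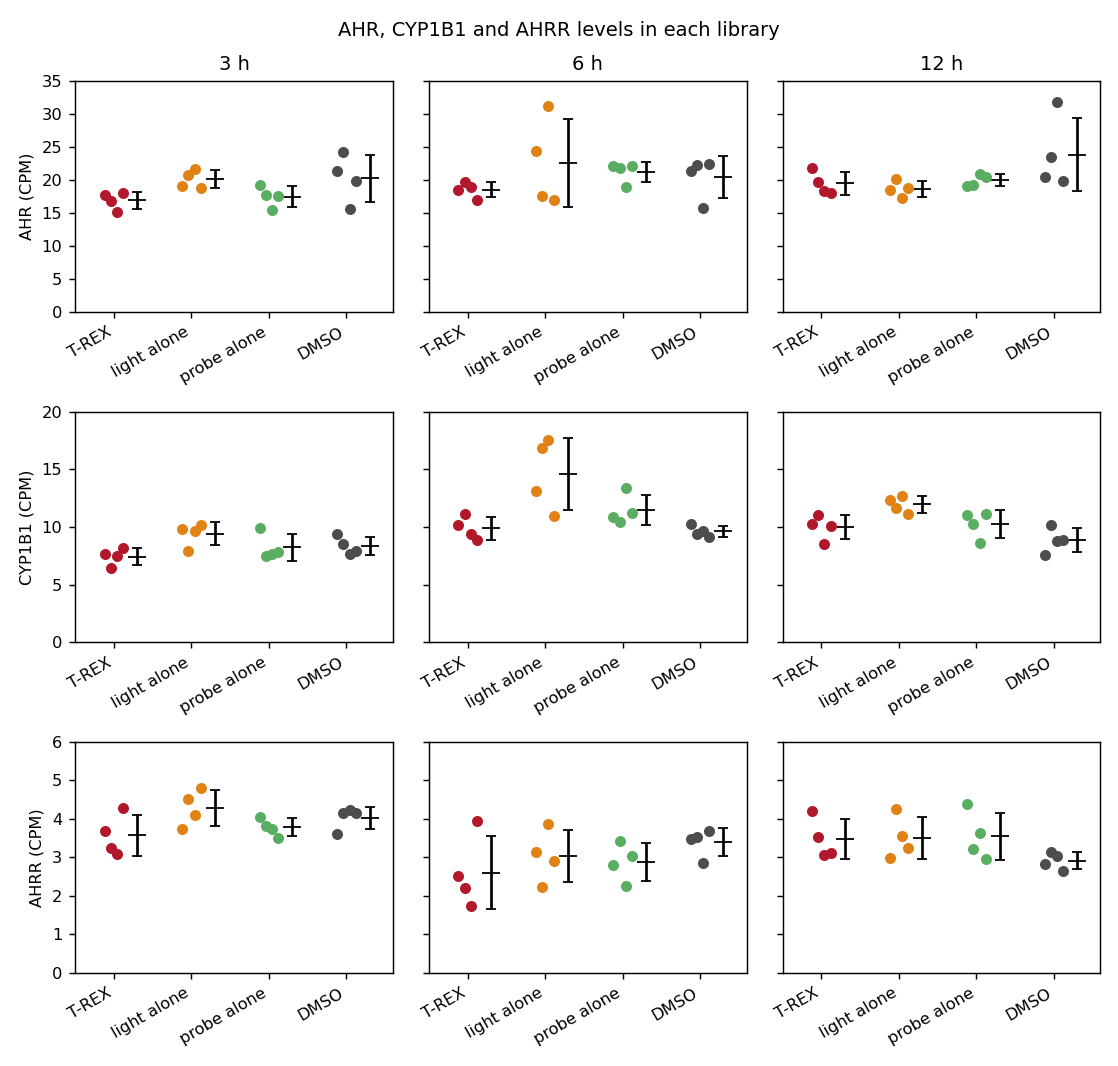
AHR, CYP1B1 and AHRR levels (CPM, linear axes from 0, each row on its own scale) in each library by arm and time. Points are the 4 replicates in order, and the bar beside them is the mean with its SD. CYP1B1 under light alone at 6 h (10.97 to 17.5 CPM) lies above DMSO (9.13 to 10.3 CPM), and AHR under T-REX at 3 h (15.2 to 18.01 CPM) lies below light alone (18.8 to 21.7 CPM). The share of all genes that lie apart in this way was not counted.

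AHR, the receptor itself, overlapped between light alone and DMSO at each time. At 6 h its level was 24.3, 17.6, 31.3 and 17.0 CPM under light alone and 21.4, 22.3, 15.7 and 22.4 CPM under DMSO. At 12 h it was 18.5, 20.2, 17.2 and 18.8 CPM under light alone and 20.4, 23.4, 31.8 and 19.8 CPM under DMSO. Single libraries, replicate 3 of light alone at 6 h and of DMSO at 12 h, set the highest values. As a description, the log2 difference of light alone against DMSO for AHR was 0.14 (SE 0.15) at 6 h and -0.35 (SE 0.11) at 12 h. It turned to -0.06 at 6 h without light alone replicate 3, and shrank to -0.18 at 12 h without DMSO replicate 3.

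At 3 h AHR had 17.7, 16.9, 15.2 and 18.01 CPM in T-REX, below all of light alone (19.1, 20.8, 21.7 and 18.8 CPM) and overlapping with DMSO (21.4, 24.2, 15.6 and 19.8 CPM). Its log2 difference was -0.25 against light alone (SE 0.11, edgeR adjusted p = 0.289) and -0.26 against DMSO (SE 0.11, edgeR adjusted p = 0.168). In T-REX against light alone at 3 h, 2174 of 14685 genes had an unadjusted edgeR p of at most 0.05. The share of all genes without overlap was not counted. At 12 h AHR in T-REX stood at -0.29 against DMSO (SE 0.11, edgeR adjusted p = 0.0974). Neither difference from DMSO was called in the fit of all libraries. That at 3 h was called without DMSO replicate 3 (-0.36, edgeR adjusted p = 0.0305), and that at 12 h without DMSO replicate 1 (-0.36, edgeR adjusted p = 0.0432) or 4 (-0.37, edgeR adjusted p = 0.0257). Other libraries moved AHR the other way, to -0.16 at 3 h without DMSO replicate 2 (edgeR adjusted p = 0.475) and to -0.12 at 12 h without DMSO replicate 3 (edgeR adjusted p = 0.461). With the 2 deposited factors as covariates both were called (-0.26 and -0.26, edgeR adjusted p = 0.0355 and 0.00746).

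AHRR, the repressor that is itself a target of AHR, was low throughout, with means from 2.6 to 4.29 CPM. At 6 h its level was 3.13, 2.24, 3.86 and 2.9 CPM under light alone, against 3.49, 3.54, 2.86 and 3.68 CPM under DMSO. In T-REX at 6 h it was 2.51, 2.2, 1.74 and 3.94 CPM, the widest spread of any arm. The light alone against DMSO difference of AHRR was 0.09 (SE 0.14), -0.16 (SE 0.22) and 0.27 (SE 0.18) on the log2 scale at 3, 6 and 12 h, each smaller than 2 SE. The 95% interval for T-REX against light alone at 6 h ran from -0.69 to 0.23.

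AHR, CYP1B1 and AHRR together were tested 48 times, in 16 comparisons each. Of these tests 0 were called by edgeR, 8 had an unadjusted p of at most 0.05, and 1 was called by DESeq2. The share of genes called by edgeR in the same comparisons ran from 0.00681% to 10.9%. In those comparisons 751 to 3957 of 14685 genes had an unadjusted edgeR p of at most 0.05, and DESeq2 called 1 to 2069. The plot of differences shows the wider intervals of AHRR and the shift of TIPARP and CYP1B1 in the comparisons with light alone.

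**Figure D3:**
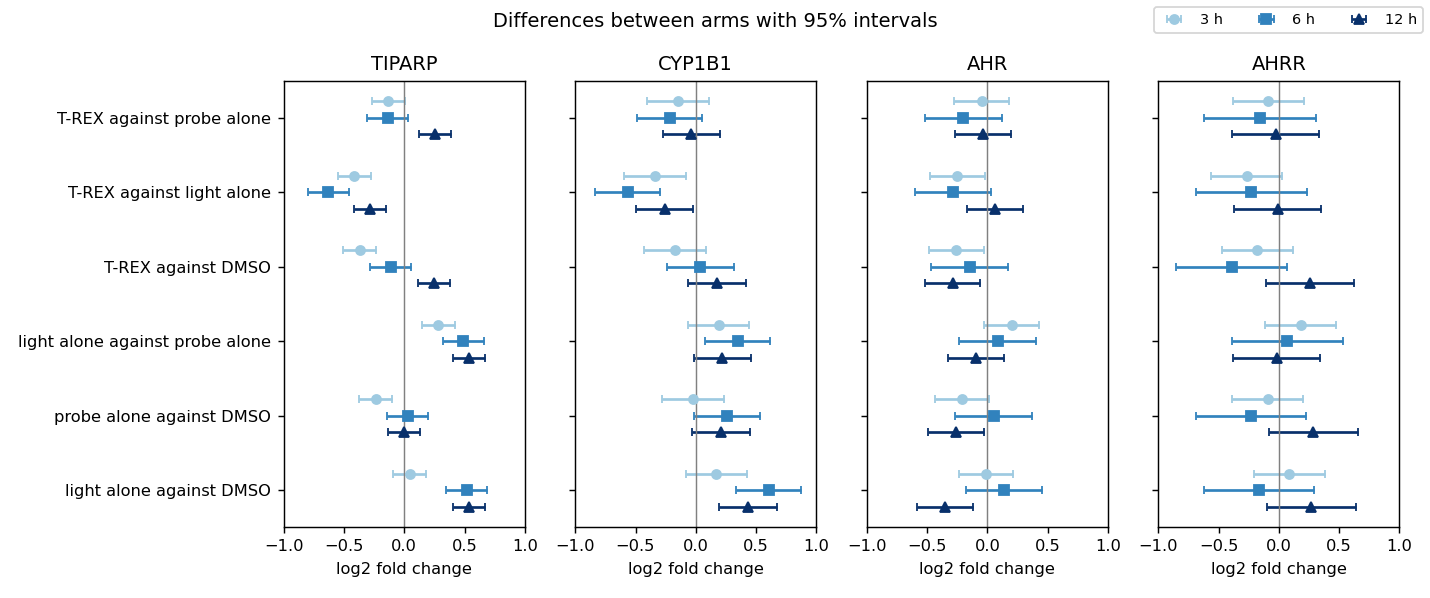
Log2 fold change (first arm over second) of TIPARP, CYP1B1, AHR and AHRR in the 6 comparisons of arms, with 95% intervals from the edgeR fit of 16 libraries per time point (circle, 3 h; square, 6 h; triangle, 12 h). For light alone against DMSO at 6 and 12 h, TIPARP (0.52 and 0.53) and CYP1B1 (0.60 and 0.43) lie to the right of 0, and AHR (0.14 and -0.35) lies on both sides.

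Likeness to TIPARP was measured as Pearson's r of log2 CPM over the 48 libraries after the mean of each time was removed, over 12427 genes with a mean of at least 100 counts. CYP1B1 was the second most like (r = 0.685 over libraries and 0.888 over the 12 arm means). DIMT1, an 18S rRNA methyltransferase, came first (r = 0.724 and 0.787), followed by PRKD3, a protein kinase D (0.675 and 0.689), SLC16A7, a monocarboxylate transporter (0.671 and 0.786), and DYNC1LI2, a dynein subunit (0.661 and 0.862). Least like were ERP29, an endoplasmic reticulum protein (-0.655), MACROH2A2, a histone variant (-0.64), and GLYR1, a nucleosome-binding protein (-0.628). The values of all genes come from the same libraries and share their depth and composition, and the arms that chose TIPARP enter r. AHR (r = 0.264) and AHRR (r = 0.169) were less like TIPARP than CYP1B1 was.

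The levels of these genes are a description, since they were picked for their likeness over the same libraries. At 6 h DIMT1 had 63.6 ± 5.42 CPM under light alone and 54.7 ± 3.72 CPM under DMSO (SD, n = 4), and SLC16A7 had 5.81 ± 1.21 and 4.16 ± 0.782 CPM. At 12 h DIMT1 had 54.9 ± 2.45 and 54.4 ± 2.66 CPM and SLC16A7 4.99 ± 0.339 and 4.89 ± 0.874 CPM. Light alone and DMSO thus lay within their spread for both genes at 12 h. TIPARP was chosen by its difference between these arms at that time, so this does not set it apart from DIMT1 and SLC16A7.

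The AHR target list of 14 genes held 8 that were analysed: CYP1B1, AHRR, TIPARP, NQO1, SLC7A5, NFE2L2, HES1 and CYP2S1. Between light alone and DMSO, TIPARP was the 1 target called at 6 and at 12 h, by choice, and the median log2 difference of the 8 was -0.04 and 0.06, beside 0.00 over all genes at both times. In T-REX against DMSO at 12 h, of the 7 targets other than TIPARP 1 was called higher and 1 lower, where 10.9% of genes were called. SLC7A5, a large neutral amino acid transporter, rose from 109.2 ± 18.6 to 139.5 ± 9.9 CPM (SD, n = 4; log2 difference 0.35, edgeR adjusted p = 0.0229). HES1, a transcriptional repressor of the Notch pathway, fell from 19.1 ± 1.51 to 15.5 ± 0.41 CPM (SD, n = 4; -0.30, edgeR adjusted p = 0.034). In T-REX against light alone TIPARP was called lower at 3 h, its values at 6 and 12 h are the description above, and none of the other 7 targets was called by edgeR at any of the 3 times. None was called in T-REX against probe alone.

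The SLC7A5 call was lost without DMSO replicate 3 (0.26, edgeR adjusted p = 0.0887), T-REX replicate 1 (adjusted p = 0.0565) or T-REX replicate 4 (adjusted p = 0.0676). The HES1 call held in 10 of 16 fits with 1 library left out, and was lost without DMSO replicate 1 (-0.24, edgeR adjusted p = 0.0873) or 2 (adjusted p = 0.0643) or any 1 T-REX library (adjusted p = 0.0609 to 0.0837).

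All 6 genes of the receptor complex list were analysed, and calls were made for PTGES3, HSP90AA1 and ARNT2. Of all genes, 5.99% at 3 h and 10.9% at 12 h were called in T-REX against DMSO, and 1.05% and 0.701% against probe alone. PTGES3, which encodes p23, fell in T-REX at 3 h from 402.4 ± 27.2 CPM under DMSO to 334.6 ± 10.1 CPM (SD, n = 4; log2 difference -0.27, edgeR adjusted p = 0.00528). It also fell against probe alone at 3 h (-0.21, edgeR adjusted p = 0.0467) and against DMSO at 12 h (-0.22, edgeR adjusted p = 0.00519). Against light alone PTGES3 was not called at 3 h (-0.15, edgeR adjusted p = 0.164) or 12 h (-0.14, edgeR adjusted p = 0.202). The call against probe alone held in 5 of 16 fits with 1 library left out. It was lost without DMSO replicate 1, 2 or 4, probe alone replicate 1, 2 or 3, T-REX replicate 2 or 4, or light alone replicate 1, 3 or 4 (edgeR adjusted p = 0.0502 to 0.174).

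HSP90AA1, the inducible cytosolic HSP90, fell in T-REX against probe alone at 12 h, from 1290.0 ± 106.1 to 1068 ± 22.9 CPM (SD, n = 4; -0.27, edgeR adjusted p = 0.0192). This held in 9 of 16 fits with 1 library left out, and was lost without any 1 of the T-REX libraries or of probe alone replicates 1 to 3 (edgeR adjusted p up to 0.13). ARNT2, a neural and renal paralogue of ARNT, rose in T-REX against DMSO at 12 h (0.35, edgeR adjusted p = 0.0125), a call lost without T-REX replicate 1 (0.31, edgeR adjusted p = 0.0598). ARNT, HSP90AB1 and AHR were called in none of the comparisons tested, and between light alone and DMSO 0 of the 6 were among the genes called. The median log2 difference of the 6 genes in T-REX against DMSO was -0.125, 0.02 and -0.15 at 3, 6 and 12 h, beside 0.03, 0.00 and 0.00 over all genes.

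**Figure D4:**
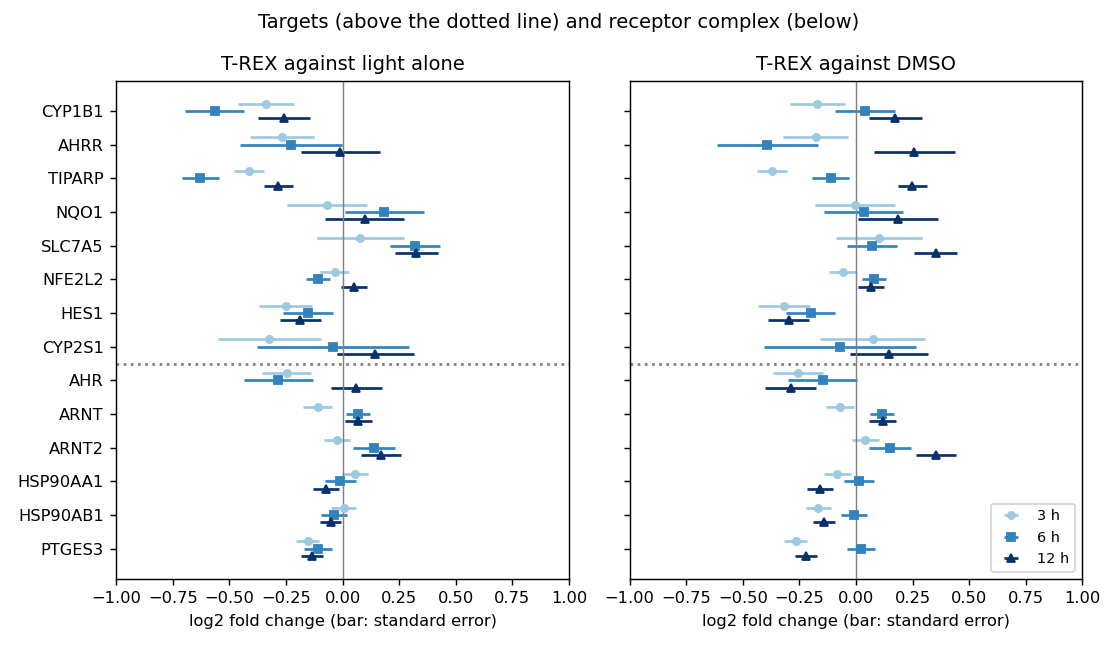
Log2 fold change of the 8 AHR targets (above the dotted line) and the 6 receptor complex genes (below) in T-REX against light alone (left) and against DMSO (right), with bars of 1 standard error (circle, 3 h; square, 6 h; triangle, 12 h). TIPARP and CYP1B1 lie left of 0 against light alone at all 3 times, and PTGES3 lies left of 0 against DMSO at 3 and 12 h.

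The PARP family, the enzymes that share the catalytic fold of TIPARP, had 13 of 17 genes analysed. Apart from TIPARP, PARP6 was the 1 member called, higher in T-REX than in DMSO at 12 h, where 10.9% of all genes were called. Its mean was 98.2 ± 0.612 against 80.7 ± 7.99 CPM (SD, n = 4), with a log2 difference of 0.28 (edgeR adjusted p = 0.00233). Between light alone and DMSO the median of the 13 genes was 0.05 at 6 h and -0.01 at 12 h, beside 0.00 over all genes at both times.

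Of the 6 markers of HEK293T cells, 4 had a log2 difference above 0 in T-REX against DMSO at 3 and at 12 h (median 0.06 and 0.08), none of them called, such as NEFM at 3 h (0.36, edgeR adjusted p = 0.141) and KRT8 at 12 h (0.37, edgeR adjusted p = 0.113). The calls were lower, CDH2 at 3 h (-0.19, edgeR adjusted p = 0.0337), and LIN28B (-0.25, edgeR adjusted p = 0.0138) and CDH2 (-0.17, edgeR adjusted p = 0.0479) at 12 h. Of all genes, 5.99% and 10.9% were called at these times. The COL1A1 difference was not called. The part of the cells' state in the differences of SLC7A5, HES1, ARNT2, PTGES3 and PARP6 from DMSO was not tested.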

How the data were processed

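RNA-seq libraries were made by the authors from HEK293T cells after depletion of ribosomal RNA (stranded, paired-end). The authors deposited raw counts per gene, which were tested here, log2 CPM, and 2 factors of unwanted variation per library, a score per library named RUV in the file headers, with no variant of the method or control genes given. For RNA-seq software the authors name TopHat, Cufflinks and cutadapt. How the deposited counts were made from the alignments and the genome build are not given in the sources used here, and a table of log2 CPM with those factors removed was not used. Overlapping transcripts could share reads: how they were counted is not known.

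Symbols were matched by Ensembl identifier, and merged exon lengths were from GENCODE. For each time point, the 16 libraries were fitted together in edgeR 4.0.16 (R 4.3.3; TMM, filterByExpr, which removed 0 genes, quasi-likelihood F-test, two-sided). p-values were adjusted (Benjamini-Hochberg) over 14685 genes within a comparison, and those of at most 0.05 were called. Differences over time were interactions in 1 fit of 48 libraries. Scripts were tested on simulated data. TMM factors ran from 0.954 to 1.06.

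The members and lists were chosen with earlier results of these data known. The genes named are the members, the lists (receptor complex, AHR targets, PARP family, cell markers) and the 5 genes most and 3 least correlated with TIPARP. A gene of the receptor complex list and a cell marker were taken off the lists and are not reported here. Alternatives were DESeq2 1.42.0, RLE factors, no filter, the replicate number as a block, the 2 deposited factors as covariates, only the 2 arms compared, limma-trend (limma 3.58.1) on the log2 CPM that the authors deposited, omission of each library in turn, and an exact permutation test.

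Replicate numbers were not used as pairs in the main fits, and whether they pair the samples is not settled. Deviations of same-numbered libraries correlated above 0.1 in 12, 9 and 4 of 24 pairs at 3, 6 and 12 h. Their median r was 0.06, -0.012 and -0.0014, beside -0.0141, -0.00282 and 0.00324 for pairs with unlike numbers. Same-numbered pairs had a highest r of 0.574, 0.389 and 0.173 and a lowest of -0.6, -0.476 and -0.262.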

Additional observations from a re-analysis of the deposited data

Results flagged for a closer look

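In 4 of 48 groups of 4 libraries (4 members, 12 arms and times), 1 library lay far from the other 3 by Dixon's test. Chance gives about 1 in 20 groups. AHR was lowest at 15.7 CPM in DMSO replicate 3 at 6 h and at 18.9 CPM in probe alone replicate 3 at 6 h. AHRR was lowest at 3.61 CPM in DMSO replicate 1 at 3 h. CYP1B1 was highest at 9.93 CPM in probe alone replicate 1 at 3 h.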

How the results depend on the processing

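Of 361 alternatives for the main comparisons that were tested, 337 kept their direction and their side of the 0.05 threshold. A further 15 changed the sign of a difference that was not called, and 9 put a difference below 0.05 that was not called before. The exact permutation test was compared with 0.05 by its unadjusted p, so where it is 1 of the 9 it is not a call as defined here. A further 46, of TIPARP in light alone against DMSO at 6 and 12 h, have no test and moved by less than 1 SD between replicates. With only those 2 arms, edgeR called 0 genes at 6 h, where 1529 had an unadjusted p of at most 0.05 and DESeq2 with all arms called 133. The 9 were as follows. For TIPARP in T-REX against probe alone at 12 h these were DESeq2 (0.25, adjusted p = 0.0168), the 2 deposited factors (0.25, edgeR adjusted p = 0.00211), only the 2 arms (0.25, edgeR adjusted p = 0.013), and 4 of 16 fits without 1 library (0.21 to 0.29 over the 16). The exact permutation test gave 0.25 with an unadjusted p = 0.0286, the smallest that 4 against 4 can give. The change of that difference from 3 to 12 h was called with the 2 deposited factors (0.41, edgeR adjusted p = 0.00458). With the replicate number as a block, the same 12 h difference was 0.25 (edgeR adjusted p = 0.0942), and TIPARP in light alone against probe alone at 3 h was called (0.28, edgeR adjusted p = 0.0448). At 3, 6 and 12 h, 5, 9 and 4 of 16 libraries correlated best with their own number. In fits of only the 2 arms compared, the calls of SLC7A5, HES1, ARNT2 and PTGES3 against DMSO at 12 h and of PTGES3 against probe alone at 3 h were lost (edgeR adjusted p = 0.0666 to 0.202). The cause of these shifts was not tested.

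Counts of genes called moved more than those of members. Over all alternatives, T-REX against probe alone gave 3 to 2551 genes at 3 h (154 in the fit reported), 6 to 257 at 6 h (16) and 29 to 901 at 12 h (103). Against light alone it gave 3 to 1733 (29), 9 to 1202 (32) and 94 to 1266 (189), and against DMSO 187 to 3061 (880), 11 to 1048 (61) and 366 to 3925 (1598). Light alone against probe alone gave 1 to 2176 (34), 1 to 450 (9) and 20 to 1231 (61), probe alone against DMSO 0 to 183 (1), 1 to 360 (4) and 14 to 3298 (751), and light alone against DMSO 0 to 858 (1), 0 to 1797 (1) and 2 to 1022 (2). The highest count came from the 2 deposited factors in every comparison. AHRR had 61 to 156 counts per library, the fewest of the members.

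Over these and the other comparisons, 14 differences close to 0 changed sign, with 0 called by edgeR and adjusted p-values of at least 0.868. Without 1 library each, AHR in T-REX against probe alone ran from -0.104 to 0.0048 at 3 h and from -0.094 to 0.0044 at 12 h, CYP1B1 from -0.113 to 0.028 and AHRR from -0.134 to 0.093 at 12 h, and the change of TIPARP from 3 to 6 h from -0.069 to 0.073. At 12 h in T-REX against light alone, AHR ran from -0.00039 to 0.10 and AHRR from -0.118 to 0.097. In light alone against probe alone, AHR ran from -0.114 to 0.199 and AHRR from -0.068 to 0.191 at 6 h, and AHRR from -0.124 to 0.102 at 12 h. Against DMSO, CYP1B1 ran from -0.023 to 0.088 in T-REX at 6 h and from -0.128 to 0.038 in probe alone at 3 h, and AHR from -0.053 to 0.105 in probe alone at 6 h and from -0.117 to 0.087 in light alone at 3 h. The last was 0.0048 with the replicate number as a block and 0.0054 with limma-trend.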
